A study of Mus musculus with 18 samples.

Results

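Hepatocytes of 3 old mice were set against hepatocytes of 3 young mice, all isolated before any surgery (quiescent hepatocytes), and every gene of the deposited counts in these 6 of the 18 libraries of the series was described. The Young mice were 3 months old and the Old mice 24 months old, and each library came from 1 mouse. All were male wild-type C57BL/6J mice that had received no virus and no partial hepatectomy (PH, a surgical resection after which the remaining lobes regrow). Young mice came from a commercial breeder (Jackson Laboratories) and Old mice from the aged rodent colonies of the National Institute on Aging, so age and source cannot be told apart. The livers were dissociated with collagenase, and the study required a high viability and purity by light microscopy. Polyadenylated RNA was sequenced, and of 31053 genes counted, 14554 passed the filter on low counts and were tested.

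Hepatocytes make most plasma proteins and bile acids, store and burn fat, clear drugs, and release glucose into the blood. The aging mouse liver is known for low-grade inflammation with more immune cells, more stored fat and a slower recovery from injury. Counts from isolated hepatocytes also read the few macrophages, endothelial cells and lymphocytes left in the preparation, and they read RNA of the nucleus and of the cytoplasm in whatever proportion each library holds them.

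Higher in Old were 4259 genes (29.3% of those tested), and 4909 were lower (33.7%), so 63.0% of genes were called at an adjusted p under 0.05 by the quasi-likelihood test of edgeR. The median log2 fold change was −0.05. Levels are in CPM, counts scaled to a common library size that includes the TMM scaling factor of each library. The CPM of the groups did not overlap for 66.2% of genes. The counts of called members below are read against these shares. Each change is the log2 fold change of Old over Young with its standard error (SE) and Benjamini-Hochberg adjusted p. The SE was derived as the size of the change divided by the square root of the F statistic. It is approximate, above all for genes near 0 in a group. In libraries of bulk RNA, fewer cells of a type and less RNA per cell cannot be told apart.

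The hepatocyte label held in every library. All 15 hepatocyte markers were detected, and together they took 113794 to 138320.0 CPM in Young and 153408 to 213415 CPM in Old. Among them, 6 were higher, 5 lower and 4 not called (median log2 fold change 0.46), but in a comparison of coding genes corrected for exonic length 3 higher and 7 lower at a median of −0.47. Albumin (Alb), the main plasma protein, stood at 52266, 71631 and 58752 CPM in Young and 127109, 122660.0 and 98470.5 CPM in Old (log2 fold change 0.93, SE 0.28, adjusted p = 0.01). Trf, the iron carrier transferrin, stood at 725, 781 and 596 CPM in Young and 159.8, 117 and 91.4 CPM in Old (log2 fold change −2.51, SE 0.20, adjusted p = 2.6e-07). For both genes every Old library lay outside the Young range, above it for Alb and below it for Trf. Also lower were Apob, the protein core of VLDL particles (log2 fold change −1.85, SE 0.21, adjusted p = 4.6e-06), the urea cycle enzyme Cps1, the aminotransferase Tat and Hnf4a, the nuclear receptor that maintains hepatocyte identity (log2 fold change −0.51, SE 0.15, adjusted p = 0.0093). Hnf4a was not called without Old replicate 2 (−0.32) or Old replicate 3 (−0.39), nor was Cps1, and 2 of the 15 markers were then lower. Tat was not called without any 1 of the 6 libraries.

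The libraries of the ages differed in what they contained. Read pairs assigned to genes numbered 31729517 to 36646939 per Young library and 17089525 to 23073217 per Old library. Pairs that fell in no gene made up 26.0% to 33.9% in Young and 2.03% to 3.07% in Old, and pairs that fell in more than 1 gene 2.89% to 3.25% in Young and 6.65% to 7.10% in Old. Long noncoding genes took 7.34% to 9.72% in Young and 0.159% to 0.254% in Old of the gene counts. Most of these counts in Young fell in the gene Gm26917 (2046099 to 2346263 per library). The mitochondrial genome took 5.36% to 6.50% in Young and 6.92% to 10.4% in Old, the highest value being that of Old 1. The TMM factor of Old 1, 0.724, was also the lowest, and so raised its CPM the most. None of these measures overlapped between the groups. In the exact two-sided permutation test each gave p = 0.1, below which a design of 3 libraries per group cannot go.

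**Figure D1:**
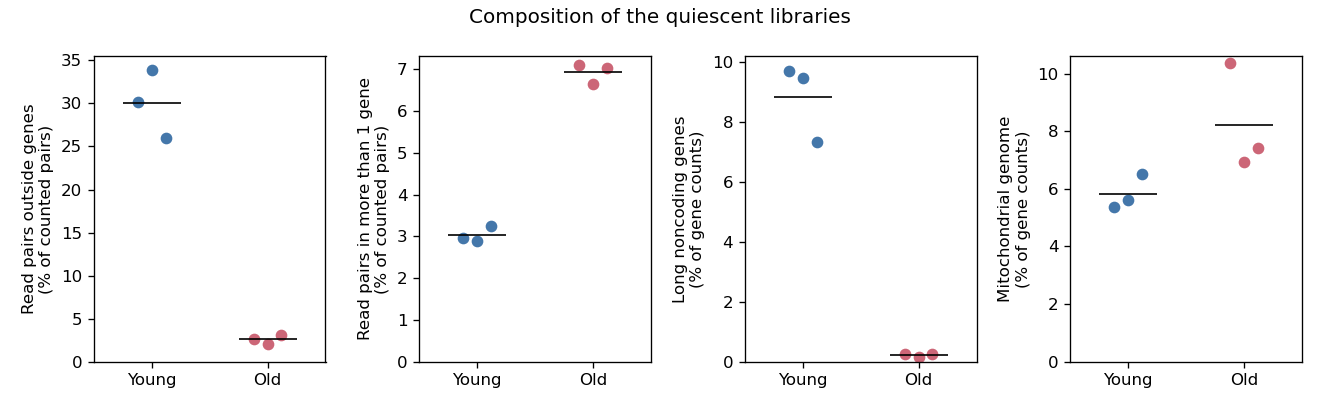
Composition of the 6 quiescent libraries, with 1 point per library and a line at the group mean: read pairs outside genes and read pairs in more than 1 gene as percent of counted pairs, and long noncoding genes and the mitochondrial genome as percent of gene counts. Pairs outside genes are at 26.0% or above in every Young library and at 3.07% or below in every Old library.

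RNAs listed as retained in the nucleus were among the largest differences. Of 10 tested nuclear long noncoding RNAs, 1 was higher, 8 lower and 1 not called (median log2 fold change −4.14), and the list summed to 71932 to 94896 CPM in Young and 469 to 1697 CPM in Old. Kcnq1ot1, an antisense transcript that silences an imprinted cluster, stood at 113, 161 and 101 CPM in Young and 0.838, 0.727 and 0.521 CPM in Old (log2 fold change −7.49, SE 0.26, adjusted p = 1.1e-09). Neat1, the scaffold RNA of paraspeckles, stood at 1119, 1423 and 502 CPM in Young and 14.3, 21.6 and 84.2 CPM in Old (log2 fold change −4.66, SE 0.81, adjusted p = 2.1e-04). Gm26917, a long noncoding gene on the plus strand (GRCm38, chr17:39843013-39846341), was the most abundant of them, with 75726, 73247 and 57793 CPM in Young and 569, 208 and 221 CPM in Old. It made up most of the list sum in Young. Gm42418, also in the list, had 345721 to 396422 counts per Young library and 3026 to 18109 per Old library. Whether the reads of either gene come from RNA retained in the nucleus was not tested. Kcnq1ot1, Neat1 and Gm26917 were lower in every Old library than in any Young library, as was Malat1, an RNA of nuclear speckles (−6.64, SE 0.50). The 1 higher RNA was Xist, which coats the inactive X chromosome, with 8, 5 and 12 counts in Young and 6, 56 and 59 in Old. Its call ended without Young replicate 2 (3.03).

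Spliced host RNAs were higher where called, and RNAs listed as without a poly(A) tail stood on both sides. Of 6 spliced long noncoding RNAs that host snoRNAs or act in the cytoplasm, 4 were higher, 0 lower and 2 not called (median log2 fold change 1.55), the higher ones being Snhg6, Epb41l4aos, H19 and Snhg12 (not called without Young replicate 1, Young replicate 3 or Old replicate 3). H19, an imprinted RNA abundant in fetal liver, stood at 0.0323, 0 and 0.141 CPM in Young and 1.26, 3.24 and 5.79 CPM in Old (log2 fold change 5.72, SE 0.85, adjusted p = 5.3e-05). Of 4 tested RNAs listed as without a poly(A) tail, 3 were higher, 1 lower and 0 not called (median log2 fold change 1.47). The 3 higher ones were histone genes, and whether their RNAs lack a tail in these libraries was not tested. In a comparison of coding genes corrected for exonic length, 1 of these 3 was higher and 0 lower, at a median of 0.43. Rmrp, the RNA of RNase MRP, had 61, 33 and 29 counts in Young and 0 in each Old library, and with a floor of 3 counts over the Old group it was at least 20.6-fold lower. Histone genes stood on both sides. Hist1h4d went from 22.7, 14.2 and 21.2 CPM in Young to 0.419, 0.331 and 0.231 CPM in Old, and Hist1h1e, a linker histone gene, from 18.6, 8.68 and 12.7 to 0.479, 0.198 and 0.174 CPM. Hist1h2bc was higher, with 42.1, 24.7 and 41.5 CPM in Young and 145, 99.3 and 103 CPM in Old (log2 fold change 1.68, SE 0.25, adjusted p = 5.7e-05). Ccnb1ip1, a coding gene with the RNase P RNA gene Rpph1 in its exon, went from 1299, 1523 and 1411 to 1.4959, 0.331 and 1.56 CPM, and reads of the pair cannot be told apart here.

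The age difference moved with the structure of the genes. Of 13230 protein-coding genes tested, 4200 were higher (31.7%) and 3991 lower (30.2%), at a median of 0.04. Of 1305 long noncoding genes, 49 were higher and 913 lower, at a median of −3.20. The quintile of coding genes with the shortest exonic length (up to 2452 bases) had 57.1% higher and 12.3% lower, at a median of 0.83. The quintile with the longest (from 7595 bases) had 9.15% higher and 61.8% lower, at a median of −0.84. Quintiles of intronic length ran from 0.49 to −0.65, whereas those of GC content stayed between −0.03 and 0.12. Long noncoding genes within the span of a coding gene had a median of −6.10 (486 of 536 lower) and the others −1.66 (427 of 769 lower). Noncoding genes near 0 in Old passed the filter through other libraries, so these counts are no test of direction. The part of library composition and gene structure in the change of any single gene was not tested.

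Lists of coding genes are also given, where marked, in a length-corrected comparison, chosen after seeing the data, which holds protein-coding genes only and removes from each library its trend on exonic length. In it 3896 of 13221 genes were higher (29.5%) and 3442 lower (26.0%). Called in the same direction in both comparisons were 5816 genes, and 166 were called in opposite directions.

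**Figure D2:**
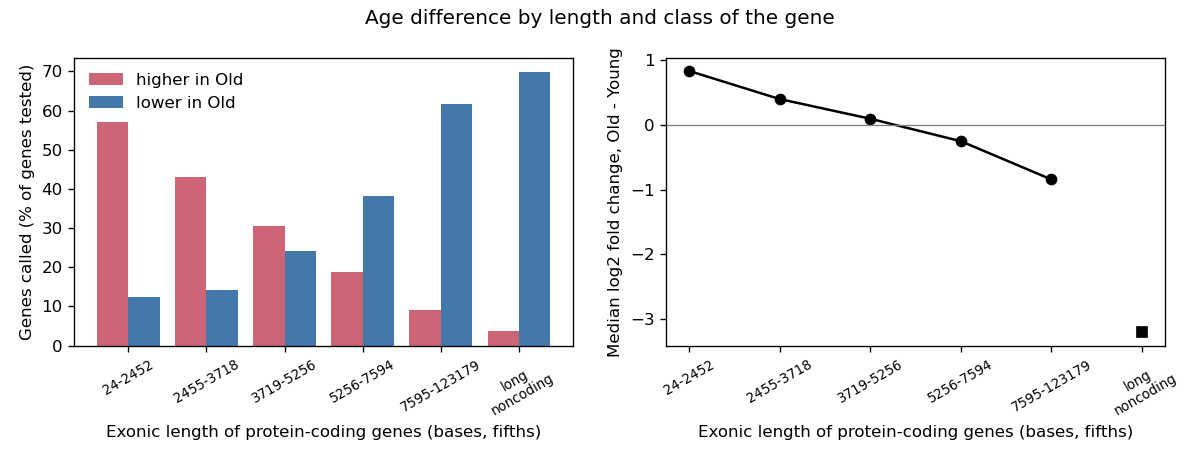
Left, percent of tested genes called higher or lower in Old by quintile of exonic length of protein-coding genes and for long noncoding genes; right, median log2 fold change (Old minus Young) of the same groups. From the shortest to the longest quintile the median goes from 0.83 to −0.84, and long noncoding genes are at −3.20.

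Several of the largest decreases among coding genes were in genes that lie inside another gene. By the rule on size (called, at least 5 CPM on average, groups not overlapping), 12 coding genes were named each way. Inside another coding gene lay 6 of the 12 lowest and 0 of the 12 highest, against 435 of all 13230 coding genes tested. Lrrc4, a neuronal adhesion gene inside Snd1, went from 15.5, 18.2 and 12.5 CPM in Young to 0.0598, 0 and 0.116 CPM in Old. Pln, the phospholamban gene of heart muscle inside Cep85l, went from 10.7, 15.3 and 10.4 to 0, 0.132 and 0.174 CPM. The other 4 were Gpr17 in Lims2, the chemokine scavenger receptor Ackr4 in Acad11, A930033H14Rik in Rhobtb1 and Gm38394 in Zc3h11a. No strand setting is stated, so reads of these genes and reads from the introns of their hosts cannot be told apart. Egfros, a noncoding gene inside the EGF receptor gene Egfr, had 31335 counts over the Young libraries and 0 in Old, at least 5238-fold lower. Srcap, an ATPase that exchanges histone H2A variants, and Fasl, the ligand of the death receptor Fas, lie inside no other gene. Srcap went from 27.0, 28.8 and 22.5 to 0.120, 0.529 and 0.231 CPM. Fasl went from 11.1, 8.36 and 10.8 to 0, 0 and 0 CPM, at least 166-fold lower.

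Genes of the eye were among the largest increases. Cryaa, a lens crystallin, stood at 0, 0 and 0 CPM in Young and 17.1, 29.2 and 41.9 CPM in Old, at least 964-fold higher. Crybb2, another lens crystallin, stood at 0, 0 and 0 CPM in Young and 13.2, 19.6 and 27.1 CPM in Old, at least 656-fold higher. Both were at 0 in every Young library, with Old 1 the lowest and Old 3 the highest of the Old libraries. Also at 0 or a trace in every Young library and higher in every Old library were Sag, the arrestin of rods (log2 fold change 7.81, SE 0.79, adjusted p = 1.7e-06), the corneal enzyme Aldh3a1 (log2 fold change 9.52, SE 1.05, adjusted p = 1.0e-05), Rbp3, a retinoid carrier of the retina (at least 337-fold), and the keratin Krt5 of stratified epithelia (at least 419-fold). In a list of 11 eye genes put together after these values were seen, and so chosen for this pattern, 7 of the 11 had no count in any Young library, and the sum was 0.593 to 0.710 CPM in Young and 70.0 to 134 CPM in Old. How these RNAs came into the Old libraries was not tested.

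**Figure D3:**
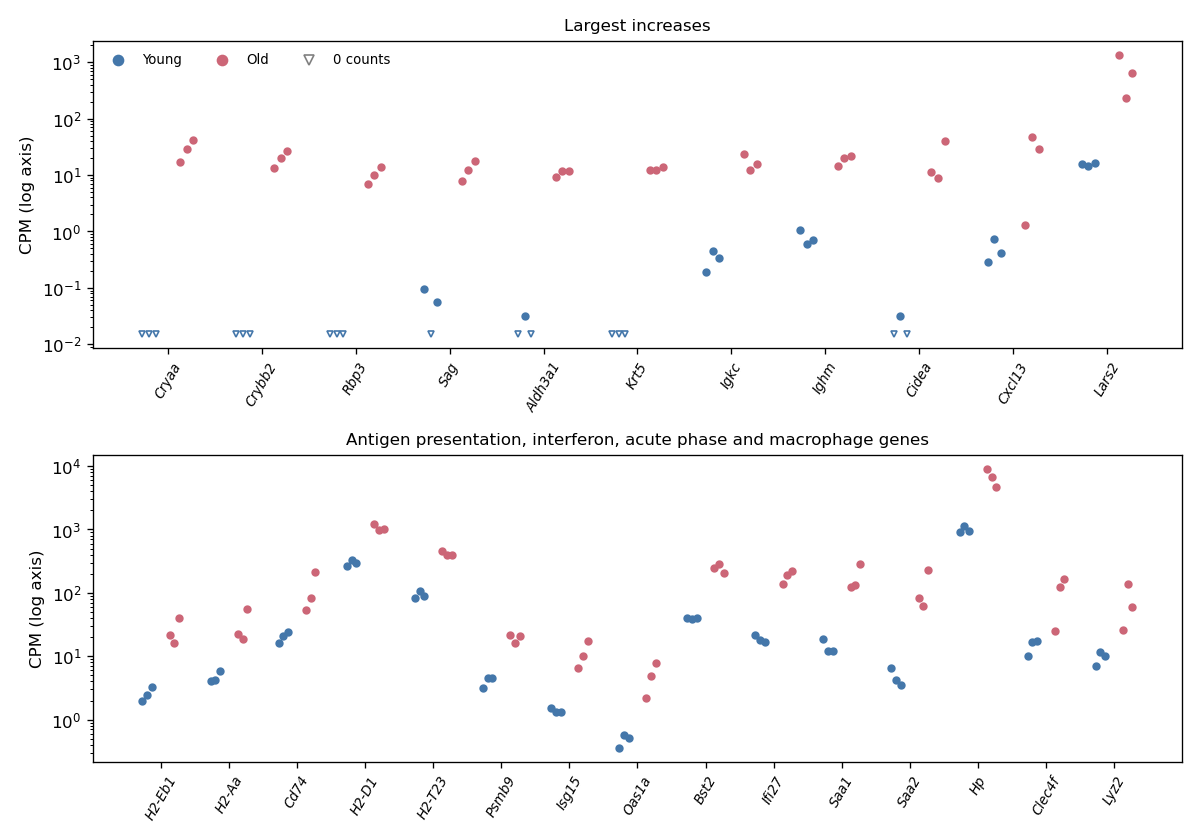
CPM on a log axis in each Young and Old library (1 point per mouse; open triangles at the bottom mark libraries with 0 counts) for genes with the largest increases and for genes of antigen presentation, the interferon response, the acute phase and macrophages. Cryaa, Crybb2, Rbp3 and Krt5 have 0 counts in all Young libraries.

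Antigen presentation genes were higher in Old. Class I molecules show peptides cut by the proteasome to CD8+ T cells on nearly every cell, and class II molecules show peptides to CD4+ T cells on macrophages, dendritic cells and B cells. In the class I list of 24 tested genes, 19 were higher, 3 lower and 2 not called (median log2 fold change 1.45), and with length correction 18 higher and 3 lower at a median of 0.95. H2-D1, a classical heavy chain, stood at 264, 324 and 301 CPM in Young and 1207, 987 and 1027 CPM in Old (log2 fold change 1.86, SE 0.15, adjusted p = 3.1e-07). H2-Q10, a heavy chain secreted by the liver and the most abundant by CPM, stood at 1923, 1928 and 1890.2 CPM in Young and 3627, 3170.4 and 3262 CPM in Old (log2 fold change 0.81, SE 0.17, adjusted p = 9.7e-04). Psmb9, a subunit of the immunoproteasome, stood at 3.16, 4.50 and 4.58 CPM in Young and 21.960, 15.9 and 21.1 CPM in Old (log2 fold change 2.27, SE 0.20, adjusted p = 4.5e-07). The groups overlapped in none of these 3 genes, nor in the nonclassical H2-T23 (log2 fold change 2.18, SE 0.15, adjusted p = 7.2e-08). Class I genes are near copies of each other, so the count of a single member is uncertain. The 3 lower genes were Nlrc5, the transactivator of class I promoters (log2 fold change −1.62, SE 0.18, adjusted p = 4.4e-06), the peptide-trimming enzyme Erap1 (log2 fold change −0.45, SE 0.12, adjusted p = 0.0046) and H2-T24 (log2 fold change −1.23, SE 0.50, adjusted p = 0.046). With length correction Erap1 was at 0.03 and not called, and without Old replicate 3 only Nlrc5 was lower. The call of H2-T24 held without Old replicate 2 and ended without any other library, at −0.61 without Old replicate 1.

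Class II genes showed the higher median. Of 8 tested, 7 were higher, 0 lower and 1 not called (median log2 fold change 2.40), and with length correction 7 higher and 0 lower at a median of 1.71. H2-Eb1, a beta chain, stood at 1.94, 2.47 and 3.28 CPM in Young and 21.7, 16.0 and 40.7 CPM in Old (log2 fold change 3.34, SE 0.32, adjusted p = 1.0e-06). H2-Aa, the alpha chain of another pair, stood at 4.03, 4.15 and 5.79 CPM in Young and 22.5, 18.971 and 55.8 CPM in Old (log2 fold change 2.80, SE 0.36, adjusted p = 1.5e-05). Cd74, the invariant chain that guides class II molecules, stood at 16.1, 21.2 and 24.5 CPM in Young and 53.016, 81.6 and 211 CPM in Old (log2 fold change 2.48, SE 0.41, adjusted p = 1.2e-04). Old 3 was the highest library for all 3 genes, and the lowest Old library was above the highest Young library.

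The promoters of called genes are printed to show the motif known for each group, from RefSeq (GRCm38.p6), 5′ to 3′ on the strand of the gene. For class II genes this is the Y box, searched as CTGATTGG on both strands in the 250 bases before the start. The match is in capitals in the 120 bases before the starts of H2-Aa (chr17:34287824-34287943, minus strand) and H2-Eb1 (chr17:34305747-34305866, plus strand).
H2-Aa: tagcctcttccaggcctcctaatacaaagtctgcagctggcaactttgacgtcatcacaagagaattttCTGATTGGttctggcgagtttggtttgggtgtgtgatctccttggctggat
H2-Eb1: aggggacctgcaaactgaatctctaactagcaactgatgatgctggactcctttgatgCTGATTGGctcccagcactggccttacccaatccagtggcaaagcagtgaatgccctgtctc
These letters stood in 3.83% of all 32851 promoters and in 4 of 10 class II promoters with an entry, those of H2-Aa, H2-Eb1, H2-Eb2 and H2-Oa. They also stood in 6 of 21 promoters of the class I list. For interferon-stimulated genes the motif is the response element of STAT and IRF factors, searched as a pair of GAAA half-sites with 2 bases between them, on both strands and with overlapping matches joined. Shown are Isg15 (chr4:156200819-156200938, minus strand), Oas1a (chr5:120907526-120907645, minus strand) and Bst2 (chr8:71537493-71537612, minus strand), the last beginning 140 bases before the start and the others 120.
Isg15: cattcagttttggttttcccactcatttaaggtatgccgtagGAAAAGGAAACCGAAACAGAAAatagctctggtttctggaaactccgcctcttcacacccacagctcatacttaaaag
Oas1a: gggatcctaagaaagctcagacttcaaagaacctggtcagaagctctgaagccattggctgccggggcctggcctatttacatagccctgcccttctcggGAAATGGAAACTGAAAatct
Bst2: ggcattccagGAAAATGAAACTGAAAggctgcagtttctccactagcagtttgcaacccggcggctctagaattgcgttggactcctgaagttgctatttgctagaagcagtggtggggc
The element stood in 2.98% of all promoters, in 16 of 29 promoters of the interferon list and in 3 of 21 of the class I list. A match describes the letters and shows no binding.

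Interferon-stimulated genes were higher in part. Of 40 tested, 21 were higher, 3 lower and 16 not called (median log2 fold change 0.86), and with length correction 18 higher and 2 lower at a median of 0.72. Isg15, a ubiquitin-like modifier, stood at 1.55, 1.30 and 1.33 CPM in Young and 6.64, 10.2 and 17.2 CPM in Old (log2 fold change 3.03, SE 0.40, adjusted p = 2.0e-05). Oas1a, a sensor of double-stranded RNA, stood at 0.355, 0.570 and 0.508 CPM in Young and 2.21, 4.83 and 7.69 CPM in Old (log2 fold change 3.35, SE 0.49, adjusted p = 4.6e-05). Bst2, a membrane tether of virus particles, stood at 40.6, 38.8 and 40.4 CPM in Young and 243, 289 and 205 CPM in Old (log2 fold change 2.62, SE 0.17, adjusted p = 4.0e-08). The groups did not overlap for these 3 genes with a printed promoter, nor for Ifi27 (log2 fold change 3.28, SE 0.26, adjusted p = 2.3e-07) and its relative Ifi27l2b (log2 fold change 5.21, SE 0.43, adjusted p = 3.4e-07). A promoter with the element did not always go with a call, since Ifit1 (log2 fold change 0.63, SE 0.50, adjusted p = 0.29) and Rsad2 (log2 fold change 0.17, SE 0.40, adjusted p = 0.73), named after their values were seen, did not pass. The 3 lower genes were the signal transducer Stat2 (log2 fold change −0.86, SE 0.16, adjusted p = 3.3e-04), the RNA sensor Ifih1 (log2 fold change −0.55, SE 0.16, adjusted p = 0.0097) and Parp14 (log2 fold change −0.53, SE 0.20, adjusted p = 0.035). The promoter of Stat2 also holds the element. Without Old replicate 1 or Old replicate 2 only 1 gene of the list was lower, Ifih1 standing at −0.35 and −0.42. Parp14 was also not called without Young replicate 2 or Young replicate 3, and stood at −0.27 without Old replicate 1. With length correction Ifih1 was at 0.02 and Parp14 at 0.17, neither called.

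Markers of macrophages were mostly higher in Old as well. Of 15 markers of Kupffer cells and macrophages, 13 were higher, 1 lower and 1 not called (median log2 fold change 1.87), and with length correction 8 higher and 1 lower at a median of 1.33. The list summed to 128 to 189.6 CPM in Young and 211 to 858 CPM in Old, and none of its genes was at 0. Clec4f, a lectin of Kupffer cells, stood at 9.97, 16.5 and 17.4 CPM in Young and 25.4, 122 and 165 CPM in Old (log2 fold change 2.83, SE 0.52, adjusted p = 3.6e-04). Lyz2, the lysozyme of myeloid cells, stood at 7.07, 11.7 and 10.1 CPM in Young and 26.3, 140.3 and 58.8 CPM in Old (log2 fold change 2.96, SE 0.53, adjusted p = 2.5e-04). Old 1 was close to the Young libraries for both, and Old 2 and Old 3 were well above. The 1 lower marker was the scavenger receptor Cd163 (log2 fold change −1.29, SE 0.39, adjusted p = 0.01), not called without Young replicate 2 or Old replicate 3 (at −0.79 in the latter case). The monocyte and neutrophil list summed to 6.27 to 7.39 CPM in Young and 39.3 to 90.0 CPM in Old, most of it in Old being Lcn2, which hepatocytes also make as an acute phase protein, and without Lcn2 it summed to 2.72 to 3.23 CPM in Young and 6.16 to 15.1 CPM in Old. The T and NK cell list summed to 3.22 to 4.52 CPM in Young and 4.55 to 13.4 CPM in Old, with Cd3d, Gzmk and Ncr1 at 0 in all Young libraries, and 1 of its 19 genes could be tested. The part of these cells in the change of antigen presentation and interferon genes was not tested.

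Immunoglobulin transcripts were higher in Old. Ighm, the heavy chain of IgM, stood at 1.07, 0.602 and 0.706 CPM in Young and 14.2, 20.2 and 21.985 CPM in Old (log2 fold change 4.57, SE 0.35, adjusted p = 1.8e-07). Igkc, the kappa light chain, stood at 0.194, 0.443 and 0.339 CPM in Young and 23.6, 12.4 and 15.7 CPM in Old (log2 fold change 5.71, SE 0.79, adjusted p = 3.2e-05). Of 9 tested genes of plasma cells and immunoglobulins, 7 were higher, 0 lower and 2 not called (median log2 fold change 3.55). Of the 16 genes of this list, 5 had no count in any Young library. Ighg2c, at 0 in Young, passed the filter through other libraries and could not have been called lower. B cell markers by contrast summed to 3.10 to 3.45 CPM in Young and 1.91 to 6.81 CPM in Old, and these ranges overlapped. Of 5 tested B cell markers, 1 was higher, 2 lower and 2 not called (median log2 fold change 0.41). With length correction 0 were higher and 2 lower at a median of −0.67. Of 23 cytokine and chemokine genes, 11 were higher, 1 lower and 11 not called (median log2 fold change 0.90), and with length correction 4 higher and 1 lower at a median of 0.42. Cxcl13, which attracts B cells, stood at 0.290, 0.728 and 0.424 CPM in Young and 1.32, 46.5 and 28.8 CPM in Old (log2 fold change 5.72, SE 1.06, adjusted p = 3.5e-04). Cxcl9, induced by interferon gamma, stood at 4.71, 6.71 and 6.38 CPM in Young and 17.4, 8.92 and 19.1 CPM in Old (log2 fold change 1.35, SE 0.27, adjusted p = 6.2e-04). The 1 lower gene was Ccl25, a chemokine of the gut and thymus, with 12.5, 19.4 and 13.4 CPM in Young and 4.07, 2.58 and 2.60 CPM in Old (log2 fold change −2.29, SE 0.23, adjusted p = 1.6e-06). Wfdc17, a gene of activated macrophages among the 12 largest increases, was again lowest in Old 1, with 0.323, 0.602 and 0.593 CPM in Young and 2.75, 22.7 and 28.4 CPM in Old.

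Markers of the other liver cells did not move as a block. Of 17 tested stellate cell and fibroblast genes, 8 were higher, 1 lower and 8 not called (median log2 fold change 0.58), with length correction 9 higher and 1 lower at a median of 0.75, and the list sum overlapped between the ages (152 to 242 CPM in Young and 155 to 293 CPM in Old). Col1a1, a chain of fibrillar collagen, stood at 0.839, 0.792 and 0.706 CPM in Young and 3.17, 3.17 and 2.60 CPM in Old (log2 fold change 1.93, SE 0.28, adjusted p = 4.9e-05). Of 18 sinusoidal endothelial genes, Clec1b was higher, and Stab1, Stab2, Flt4, Gpr182 and Bmp2 were lower. With length correction the list gave 1 higher and 5 lower at a median of −0.47, Stab1 at −0.13 and Flt4 at −0.62 not being called. Without correction, the lower count was 9 without Old replicate 2 and 3 without Old replicate 1, Old replicate 3 or Young replicate 2. The calls of Clec1b, Stab1 and Bmp2 each ended without at least 1 library, Stab1 standing at −0.49 and Bmp2 at −0.53 without Old replicate 1. Stab2, a scavenger receptor of these cells, stood at 49.4, 74.1 and 63.8 CPM in Young and 13.5, 37.6 and 21.9 CPM in Old (log2 fold change −1.36, SE 0.27, adjusted p = 5.5e-04). Of 6 tested cholangiocyte genes, 1 was higher, 3 lower and 2 not called (median log2 fold change −0.85), and with length correction 0 higher and 3 lower at a median of −1.11. Spp1 was higher (not with length correction) and the lower genes included Sox9 and the ciliary gene Pkhd1 (log2 fold change −2.40, SE 0.27, adjusted p = 4.2e-06), Sox9 not without Young replicate 1 (−0.59), Old replicate 1 or Old replicate 3. Of 6 tested genes of erythroid cells and platelets, 4 were higher, 0 lower and 2 not called (median log2 fold change 3.85), and with length correction 3 higher and 0 lower at a median of 2.73. Of the 11 genes of this list, 3 had no count in any Young library, and members near 0 in Young could pass the filter only through other libraries. The most abundant, the heme synthesis enzyme Alas2, stood at 82.1, 54.8 and 74.8 CPM in Young and 92.9, 66.6 and 99.5 CPM in Old and was not called. Without it the list summed to 2.80 to 3.74 CPM in Young and 7.42 to 23.2 CPM in Old, with Hbb-bs, a hemoglobin chain, at 0.0646, 0.0317 and 0.113 CPM in Young and 1.02, 2.25 and 1.74 CPM in Old and the platelet factor Pf4 at 0.0323, 0.0317 and 0 CPM in Young and 0.180, 2.97 and 14.8 CPM in Old.

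Acute phase proteins, which hepatocytes secrete under inflammatory cytokines, were higher wherever they were called. Of 25 tested, 18 were higher, 0 lower and 7 not called (median log2 fold change 1.24), and with length correction 10 higher and 0 lower at a median of 0.74. Saa1, a serum amyloid A gene, stood at 18.4, 12.0 and 12.2 CPM in Young and 124, 133 and 282 CPM in Old (log2 fold change 3.66, SE 0.39, adjusted p = 2.7e-06). Its near copy Saa2 stood at 6.46, 4.18 and 3.47 CPM in Young and 82.8, 62.3 and 227 CPM in Old (log2 fold change 4.72, SE 0.54, adjusted p = 5.0e-06), and reads shared by the copies may be assigned to either. Lcn2, a lipocalin that withholds iron from bacteria, stood at 4.16, 3.74 and 3.08 CPM in Young and 37.2, 26.4 and 74.9 CPM in Old (log2 fold change 3.66, SE 0.52, adjusted p = 3.9e-05). None of the 3 genes overlapped between the groups, nor did haptoglobin (Hp; log2 fold change 2.77, SE 0.32, adjusted p = 5.7e-06), which binds free hemoglobin, or the hepatokine Fgl1 (log2 fold change 3.30, SE 0.24, adjusted p = 9.9e-08).

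Complement genes were called in part. Of 27 tested, 11 were higher, 2 lower and 14 not called (median log2 fold change 0.41), and with length correction 11 higher and 2 lower at a median of 0.28. Mbl2, a lectin that starts the lectin pathway, stood at 97.6, 137 and 109 CPM in Young and 634, 566 and 428 CPM in Old (log2 fold change 2.25, SE 0.29, adjusted p = 1.5e-05), and C3, the central component, at 11430.3, 13392 and 11233 CPM in Young and 14517, 10165 and 13718 CPM in Old (log2 fold change 0.09, SE 0.26, adjusted p = 0.78). C3 was thus not called, and its groups overlapped. The lower genes were the lectin pathway proteases Masp1 (log2 fold change −1.11, SE 0.12, adjusted p = 3.6e-06) and Masp2 (log2 fold change −0.74, SE 0.12, adjusted p = 1.2e-04). Of 33 plasma proteins, 22 were higher, 3 lower and 8 not called (median log2 fold change 0.80), and with length correction 14 higher and 6 lower at a median of 0.46. Hemopexin (Hpx), the heme carrier, stood at 1937, 2473 and 2148 CPM in Young and 11879, 9114 and 8841 CPM in Old (log2 fold change 2.19, SE 0.28, adjusted p = 1.3e-05). Apoe, a ligand of lipoprotein receptors, stood at 8966, 8859 and 9829 CPM in Young and 46558, 31043 and 31390.5 CPM in Old (log2 fold change 1.98, SE 0.23, adjusted p = 7.5e-06). With length correction Hpx was at 1.30 and Apoe at 1.37, both called, whereas Alb was at 0.39 (adjusted p = 0.19). The 3 lower genes were Trf, Apob and Serpina1c.

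**Figure D4:**
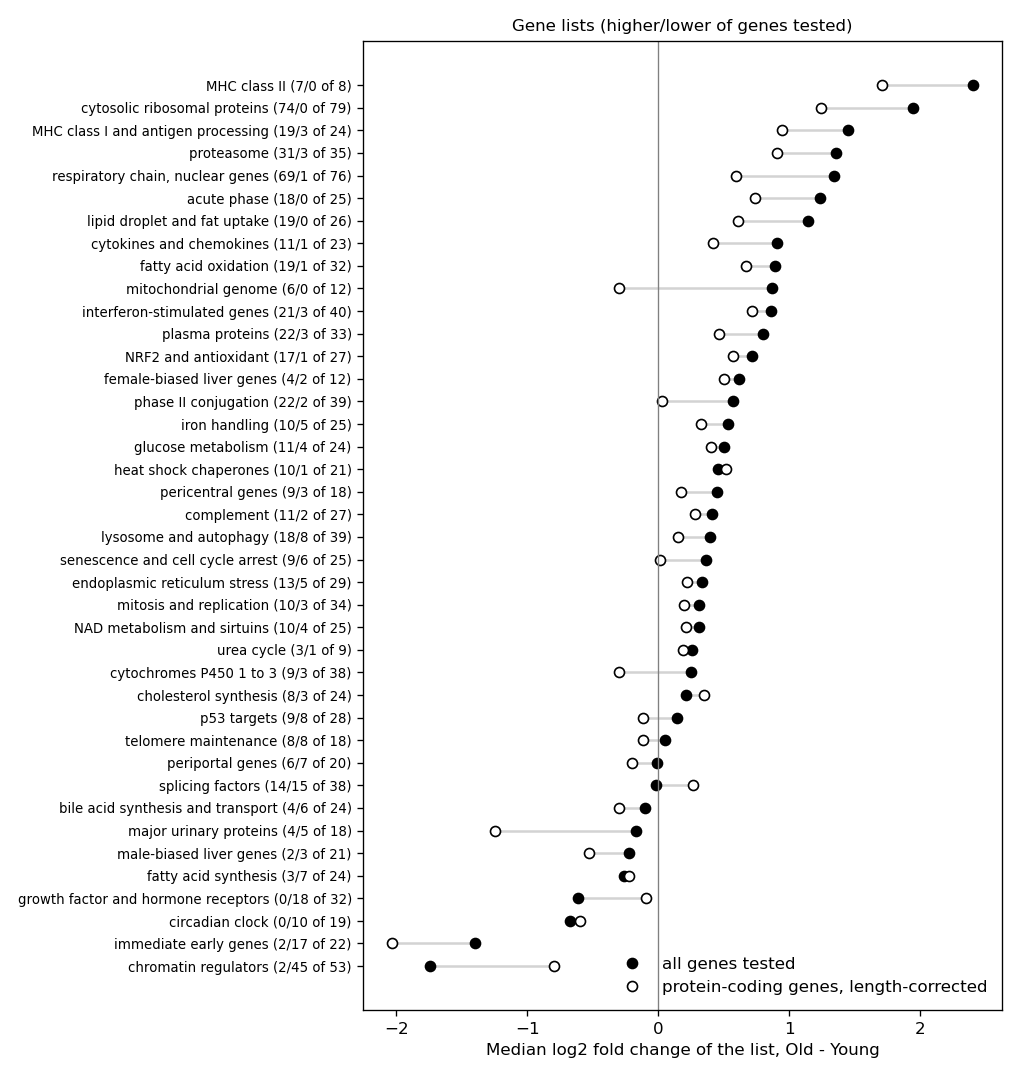
Median log2 fold change (Old minus Young) of each gene list with at least 8 genes in the length-corrected comparison. Filled points are all genes tested and open points protein-coding genes with the trend on exonic length removed; the numbers give genes higher and lower of genes tested. Chromatin regulators (−1.74) and immediate early genes (−1.40) lie lowest among the filled points, and the medians of cytochromes P450, the mitochondrial genome, p53 targets, telomere maintenance and splicing factors change sign with length correction.

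Genes of fat storage and uptake were higher where called. Of 26 tested, 19 were higher, 0 lower and 7 not called (median log2 fold change 1.14), and with length correction 12 higher and 1 lower at a median of 0.61. Cidea, a droplet fusion protein known from brown fat and fatty liver, stood at 0, 0.0317 and 0 CPM in Young and 11.2, 8.86 and 40.2 CPM in Old. G0s2, an inhibitor of the lipase ATGL, stood at 10.7, 9.37 and 9.77 CPM in Young and 91.3, 114 and 48.2 CPM in Old (log2 fold change 3.08, SE 0.41, adjusted p = 2.3e-05). Plin2, the main droplet coat of hepatocytes, stood at 230.2, 176 and 197 CPM in Young and 524, 419 and 376 CPM in Old (log2 fold change 1.13, SE 0.18, adjusted p = 9.8e-05). Every Old library was above every Young library for all 3, as for the fatty acid carriers Fabp2 (log2 fold change 2.21, SE 0.20, adjusted p = 7.1e-07) and Fabp4 (log2 fold change 2.15, SE 0.32, adjusted p = 6.4e-05). Slc27a5, a ligase of bile acids and fatty acids, was higher (log2 fold change 0.70, SE 0.16, adjusted p = 0.0014) but not called with length correction (0.19).

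Fatty acid oxidation genes were mostly higher. Of 32 tested, 19 were higher, 1 lower and 12 not called (median log2 fold change 0.89), and with length correction 18 higher and 3 lower at a median of 0.67. Etfa, which takes electrons from the acyl-CoA dehydrogenases, stood at 75.0, 57.0 and 72.3 CPM in Young and 284, 242 and 251 CPM in Old (log2 fold change 1.93, SE 0.14, adjusted p = 1.2e-07). Acaa2, the mitochondrial thiolase, stood at 305, 249 and 292 CPM in Young and 1144, 733 and 927 CPM in Old (log2 fold change 1.73, SE 0.17, adjusted p = 1.7e-06). The 1 lower gene was Ppara, the nuclear receptor that drives many of the others, with 136, 114 and 108 CPM in Young and 80.5, 40.9 and 28.8 CPM in Old (log2 fold change −1.26, SE 0.30, adjusted p = 0.0024).

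Fatty acid synthesis had more lower than higher genes, but its share of lower genes did not exceed the 33.7% over all genes tested. Of 24 tested, 3 were higher, 7 lower and 14 not called (median log2 fold change −0.26), and with length correction 2 higher and 7 lower at a median of −0.22. Mlxipl (ChREBP), the glucose-responsive regulator of lipogenic genes, stood at 929, 1030.3 and 902 CPM in Young and 105, 91.2 and 156 CPM in Old (log2 fold change −3.02, SE 0.23, adjusted p = 1.6e-07). Lpin1, a phosphatidate phosphatase, stood at 261, 272 and 178 CPM in Young and 48.3, 52.9 and 67.6 CPM in Old (log2 fold change −2.07, SE 0.23, adjusted p = 3.9e-06). Both were lower in every Old library, as was the acyltransferase Gpam (log2 fold change −1.24, SE 0.28, adjusted p = 0.0014). Acaca, which makes malonyl-CoA, was lower (log2 fold change −0.81, SE 0.18, adjusted p = 0.0015; −0.50 without Old replicate 1), but higher with length correction (0.56, adjusted p = 0.012). The 3 higher genes were Scd2, Dgat1 and Dgat2, of which Dgat2 was not called without Young replicate 2, and 5 genes were higher without Old replicate 1. With length correction Dgat1 was at 0.28 and Dgat2 at 0.10, neither called. Scd1, a desaturase with 8939, 11557 and 14118 CPM in Young and 1919.8, 10510.4 and 12616 CPM in Old, was not called.

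Cholesterol synthesis was mixed. Of 24 genes, 8 were higher, 3 lower and 13 not called (median log2 fold change 0.21), and with length correction 6 higher and 2 lower at a median of 0.35. Pmvk, a kinase of the mevalonate pathway, stood at 24.2, 16.3 and 22.5 CPM in Young and 87.5, 76.9 and 88.4 CPM in Old (log2 fold change 2.00, SE 0.34, adjusted p = 1.6e-04). Fdps, an enzyme further down the same pathway, stood at 21.1, 17.1 and 17.7 CPM in Young and 4.97, 7.21 and 7.75 CPM in Old (log2 fold change −1.49, SE 0.33, adjusted p = 0.0015). The groups overlapped for neither. Srebf2, the regulator of the pathway, was lower (log2 fold change −0.50, SE 0.14, adjusted p = 0.0068), and it was not called with length correction, at −0.03, or without Old replicate 3.

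Genes of glucose metabolism were called in both directions, as were all genes tested (29.3% higher and 33.7% lower). Of 24 tested, 11 were higher, 4 lower and 9 not called (median log2 fold change 0.50), and with length correction 11 higher and 5 lower at a median of 0.40. Ldha, which reduces pyruvate to lactate, stood at 222, 223 and 223 CPM in Young and 1264, 1221 and 1028 CPM in Old (log2 fold change 2.40, SE 0.17, adjusted p = 8.0e-08). Pgk1, phosphoglycerate kinase, stood at 66.6, 48.2 and 67.6 CPM in Young and 325, 266 and 303 CPM in Old (log2 fold change 2.29, SE 0.18, adjusted p = 2.4e-07). The 4 lower genes were Pfkfb1, Pfkfb3, the gluconeogenic coactivator Ppargc1a (log2 fold change −1.80, SE 0.31, adjusted p = 2.1e-04) and G6pc, which releases glucose from the cell (log2 fold change −1.21, SE 0.36, adjusted p = 0.0091). G6pc was not called without Old replicate 1 or Old replicate 2, and the lower count was then 2. The call of Pfkfb1 ended without any library other than Young replicate 2 and Old replicate 3 (−0.30 without Old replicate 1), and that of Pfkfb3 without Young replicate 2 (−0.98). Of 24 bile acid genes, Cyp27a1, Amacr, Baat and Slc27a5 were higher and 6 lower, or 3 lower without Old replicate 2. With length correction 2 were higher and 8 lower at a median of −0.30, Baat at −0.02 and Cyp27a1 at −0.06 not being called. Abcc2, the canalicular pump of conjugates, stood at 1227, 1421 and 1244 CPM in Young and 465, 356 and 389 CPM in Old (log2 fold change −1.69, SE 0.18, adjusted p = 2.4e-06). Slc10a1, which takes bile acids up from blood, stood at 937, 1089.5 and 1140.4 CPM in Young and 637, 549.5 and 523 CPM in Old (log2 fold change −0.89, SE 0.16, adjusted p = 3.0e-04).

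Drug metabolism genes changed their balance with length correction. Of 38 cytochromes P450, 9 were higher, 3 lower and 26 not called (median log2 fold change 0.25), but with length correction 1 higher and 10 lower at a median of −0.30. Cyp2e1, which oxidizes ethanol, stood at 5647, 7280.3 and 5944 CPM in Young and 13889, 4931 and 7140.5 CPM in Old and was not called, although it was without Old replicate 2 (0.82). Without that library 15 cytochromes were higher and 1 lower. Cyp3a13 stood at 99.3, 119 and 129 CPM in Young and 279.6, 229 and 216 CPM in Old (log2 fold change 1.06, SE 0.17, adjusted p = 1.0e-04). The 3 lower genes were Cyp2d11, Cyp2f2 and Cyp2u1, the last a fatty acid hydroxylase (log2 fold change −2.09, SE 0.32, adjusted p = 7.7e-05), and without Young replicate 1 it was 1 gene. Cyp2d11 (−0.63 without Old replicate 2) and Cyp2f2 (−0.30 without Old replicate 3) lost their calls. Of 39 conjugating enzymes, 22 were higher, 2 lower and 15 not called (median log2 fold change 0.57), and with length correction 10 higher and 7 lower at a median of 0.03. Gstt1, a glutathione transferase, stood at 116, 75.2 and 130.0 CPM in Young and 361, 269 and 307 CPM in Old (log2 fold change 1.55, SE 0.20, adjusted p = 1.6e-05), and Ugt1a6a and Ugt1a1 were the lower genes, Ugt1a1 not without Young replicate 2, Young replicate 3, Old replicate 2 (−0.34) or Old replicate 3. Major urinary proteins, male pheromone carriers whose genes are near copies, gave 4 higher (Mup3, Mup7, Mup8 and Mup20) and 5 lower (Mup11, Mup14, Mup16, Mup17 and Mup18) of 18. These counts were 2 higher without Young replicate 2, 3 lower without Old replicate 3, and 0 higher and 11 lower with length correction. Mup11 stood at −0.64 without Old replicate 3 and was not called.

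Zonal genes changed in both directions, as did all genes tested (29.3% higher and 33.7% lower). Of 18 pericentral genes, 9 were higher, 3 lower and 6 not called (median log2 fold change 0.45), but with length correction 4 higher and 5 lower at a median of 0.17, the lower ones without it being Lgr4, Lgr5 and the glutamate transporter Slc1a2, which was at 0.30 and not called with length correction. Lgr5, a receptor of R-spondins, stood at 16.2, 18.7 and 14.5 CPM in Young and 6.70, 6.35 and 4.69 CPM in Old (log2 fold change −1.48, SE 0.19, adjusted p = 1.5e-05). Rgn, a lactonase also known as SMP30, stood at 269, 259 and 301 CPM in Young and 871, 744 and 893 CPM in Old (log2 fold change 1.60, SE 0.14, adjusted p = 5.2e-07). Both kept their call with length correction (Lgr5 at −0.68 and Rgn at 0.78). Of 20 periportal genes, 6 were higher, 7 lower and 7 not called (median log2 fold change −0.01), and with length correction 4 higher and 6 lower at a median of −0.20. Without it there were 4 lower when Young replicate 1, Young replicate 3, Old replicate 2 or Old replicate 3 was left out. Cdh1, E-cadherin, stood at 195, 181 and 183 CPM in Young and 16.8, 36.9 and 17.9 CPM in Old (log2 fold change −2.97, SE 0.60, adjusted p = 7.4e-04). Sds, serine dehydratase, stood at 113, 105 and 115 CPM in Young and 32.5, 24.3 and 35.0 CPM in Old (log2 fold change −1.86, SE 0.19, adjusted p = 1.9e-06). The urea cycle enzymes Otc (log2 fold change 0.70, SE 0.15, adjusted p = 0.0011) and Arg1 (log2 fold change 0.87, SE 0.24, adjusted p = 0.0057) were higher, Arg1 not with length correction.

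Ribosomal protein genes were higher almost throughout. Of 79 tested, 74 were higher, 0 lower and 5 not called (median log2 fold change 1.94), and with length correction 66 higher and 1 lower at a median of 1.24. The list summed to 3176 to 4838 CPM in Young and 11318 to 19652 CPM in Old. Rps2, of the small subunit, stood at 279, 173 and 281 CPM in Young and 1021, 493 and 691 CPM in Old (log2 fold change 1.59, SE 0.25, adjusted p = 8.7e-05). Rpl9, of the large subunit, stood at 30.5, 23.7 and 28.3 CPM in Young and 253, 163 and 174 CPM in Old (log2 fold change 2.84, SE 0.21, adjusted p = 1.3e-07). In both, Old 1 was the highest library. These genes have a median exonic length of 1770 bases, against 4159 over all genes tested. They also have many processed copies in the genome, and how reads shared with copies were assigned is not stated.

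Proteasome genes were also mostly higher. Of 35 tested, 31 were higher, 3 lower and 1 not called (median log2 fold change 1.36), and with length correction 28 higher and 2 lower at a median of 0.91. Psmd7, a lid subunit, stood at 25.1, 22.6 and 24.6 CPM in Young and 91.3, 79.3 and 75.2 CPM in Old (log2 fold change 1.76, SE 0.11, adjusted p = 2.6e-08). Psmb4, of the core, stood at 33.6, 26.3 and 31.7 CPM in Young and 171, 115 and 122 CPM in Old (log2 fold change 2.15, SE 0.17, adjusted p = 2.2e-07). The 3 lower genes were the nuclear activators Psme3 (log2 fold change −0.81, SE 0.13, adjusted p = 1.5e-04) and Psme4 (log2 fold change −0.43, SE 0.11, adjusted p = 0.0029) and the lid subunit Psmd11 (log2 fold change −0.54, SE 0.14, adjusted p = 0.0039). Psme4 was at −0.28 and not called without Old replicate 3, and at 0.17 with length correction, which also ended the call of Psmd11 (−0.20).

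The nuclear genes of the respiratory chain went the same way. Of 76 tested, 69 were higher, 1 lower and 6 not called (median log2 fold change 1.34), and with length correction 49 higher and 5 lower at a median of 0.59. Atp5b, the catalytic subunit of ATP synthase, stood at 581, 515 and 605 CPM in Young and 1323, 965 and 1130.4 CPM in Old (log2 fold change 1.01, SE 0.16, adjusted p = 1.1e-04). Cytochrome c (Cycs) stood at 17.6, 13.7 and 17.0 CPM in Young and 70.0, 65.5 and 60.7 CPM in Old (log2 fold change 2.02, SE 0.17, adjusted p = 4.2e-07). The groups did not overlap for either. The 1 lower gene, Ndufb2 of complex I (log2 fold change −0.95, SE 0.34, adjusted p = 0.027), was not called without Young replicate 2, Young replicate 3, Old replicate 1 (−0.50) or Old replicate 2, nor with length correction. Of the 12 tested protein-coding genes of the mitochondrial genome, 6 were higher, 0 lower and 6 not called (median log2 fold change 0.87), but with length correction 1 higher and 4 lower at a median of −0.30. mt-Nd3, of complex I, stood at 5.45, 5.32 and 4.75 CPM in Young and 95.6, 54.1 and 37.8 CPM in Old (log2 fold change 3.59, SE 0.34, adjusted p = 1.1e-06). mt-Co1, of complex IV, stood at 25208, 30566 and 33376 CPM in Young and 76508, 37633 and 41429 CPM in Old and was not called, although it was without Old replicate 2 (1.07) or Old replicate 3 (1.03).

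Antioxidant enzymes and chaperones were higher in part. Of 27 antioxidant genes, 17 were higher, 1 lower and 9 not called (median log2 fold change 0.72), and with length correction 15 higher and 6 lower at a median of 0.57. Sod1, the cytosolic superoxide dismutase, stood at 269, 202 and 267 CPM in Young and 1030.2, 578 and 733 CPM in Old (log2 fold change 1.67, SE 0.21, adjusted p = 1.1e-05). The peroxiredoxins Prdx1 (log2 fold change 1.41, SE 0.17, adjusted p = 8.4e-06) and Prdx2 (log2 fold change 1.72, SE 0.15, adjusted p = 6.6e-07) were higher too. The 1 lower gene was G6pdx, which supplies NADPH (log2 fold change −0.90, SE 0.28, adjusted p = 0.012), not called without Old replicate 1 (−0.47). Of 21 chaperones and their regulators, 10 were higher, 1 lower and 10 not called (median log2 fold change 0.46), and with length correction 12 higher and 4 lower at a median of 0.52. Hspe1, a mitochondrial chaperonin, stood at 27.7, 31.9 and 39.2 CPM in Young and 125, 96.2 and 106 CPM in Old (log2 fold change 1.73, SE 0.17, adjusted p = 1.7e-06). The 1 lower gene was Hsf1, the factor that switches chaperone genes on, with 25.3, 31.4 and 26.6 CPM in Young and 18.2, 10.6 and 14.001 CPM in Old (log2 fold change −0.96, SE 0.17, adjusted p = 2.1e-04). Of 29 genes of endoplasmic reticulum stress, 13 were higher, 5 lower and 11 not called (median log2 fold change 0.33), and with length correction 8 higher and 6 lower at a median of 0.22. The folding enzyme Pdia6 was higher (log2 fold change 1.63, SE 0.19, adjusted p = 5.2e-06), and lower were Atf3, Atf4, Eif2ak3 and the sensors Ern1 (log2 fold change −1.48, SE 0.20, adjusted p = 2.0e-05) and Atf6 (log2 fold change −0.80, SE 0.13, adjusted p = 1.1e-04), with 3 lower without Young replicate 2, Old replicate 1 or Old replicate 3. Atf4 was not called without any 1 of the 6 libraries (−0.30 without Old replicate 2), and Eif2ak3 stood at −0.31 without Old replicate 1 and was not called. With length correction Atf6 was at −0.12 and Eif2ak3 at −0.27, neither called.

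Lysosome, iron and NAD genes were mixed. Of 39 genes of lysosome and autophagy, 18 were higher, 8 lower and 13 not called (median log2 fold change 0.40), and with length correction 17 higher and 10 lower at a median of 0.15. Npc2, a lysosomal cholesterol carrier, stood at 34.9, 35.3 and 37.6 CPM in Young and 124, 108 and 122 CPM in Old (log2 fold change 1.71, SE 0.11, adjusted p = 3.7e-08). Ulk1, the kinase that starts autophagy, stood at 178, 173 and 163 CPM in Young and 84.3, 52.7 and 69.7 CPM in Old (log2 fold change −1.32, SE 0.18, adjusted p = 2.6e-05). Of 25 iron genes, 10 were higher, 5 lower and 10 not called (median log2 fold change 0.53), and with length correction 10 higher and 4 lower at a median of 0.32. Hmox1, which degrades heme, was higher (log2 fold change 1.63, SE 0.26, adjusted p = 1.2e-04), as was Hfe, a regulator of hepcidin (log2 fold change 1.02, SE 0.12, adjusted p = 6.8e-06). The 5 lower genes were Trf, the hepcidin gene Hamp2 (below 1 CPM in every library), Smad7 (log2 fold change −1.10, SE 0.28, adjusted p = 0.0036), the metal transporter Slc39a14 (log2 fold change −0.79, SE 0.18, adjusted p = 0.002) and Ireb2. With length correction Slc39a14 was at 0.05 and not called, and Ireb2, at −0.35 without it, was called higher (0.37, adjusted p = 0.032). Ireb2 was also not called without Young replicate 1, Young replicate 3, Old replicate 2 or Old replicate 3 (−0.20). Of 25 NAD and sirtuin genes, 10 were higher, 4 lower and 11 not called (median log2 fold change 0.31), and with length correction 8 higher and 5 lower at a median of 0.21. The 4 lower genes were Nnt, the deacylases Sirt1 (log2 fold change −0.62, SE 0.16, adjusted p = 0.0037; not called without Old replicate 1) and Sirt6 (log2 fold change −0.83, SE 0.23, adjusted p = 0.0055) and the kynureninase gene Kynu (log2 fold change −0.61, SE 0.14, adjusted p = 0.0014; not called with length correction). Nnmt, which methylates nicotinamide, stood at 32.6, 25.4 and 34.7 CPM in Young and 184, 116 and 136 CPM in Old (log2 fold change 2.23, SE 0.27, adjusted p = 1.0e-05). Nnt, the mitochondrial transhydrogenase of which C57BL/6J mice are known to lack exons, was low in both groups, with 54, 81 and 58 counts in Young and 11, 10 and 5 in Old (log2 fold change −1.89, SE 0.44, adjusted p = 0.0019).

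Chromatin regulators had the lowest median of the coding lists, though not with length correction, where immediate early genes, major urinary proteins and cholangiocyte genes lay lower. They include methyltransferases of active promoters and enhancers, acetyltransferases and remodelling ATPases. Of 53 tested, 2 were higher, 45 lower and 6 not called (median log2 fold change −1.74), and with length correction 2 higher and 35 lower at a median of −0.79. The median exonic length of the list was 10754 bases, and its sum was 4545 to 5126 CPM in Young and 1383 to 1452 CPM in Old. Kmt2d, which methylates histone H3 at enhancers, stood at 399, 411 and 317 CPM in Young and 21.5, 24.7 and 26.4 CPM in Old (log2 fold change −3.96, SE 0.16, adjusted p = 2.9e-09). Crebbp, an acetyltransferase of histones, stood at 200.4, 165 and 169 CPM in Young and 13.3, 19.8 and 15.3 CPM in Old (log2 fold change −3.46, SE 0.17, adjusted p = 7.7e-09). Kmt2a, a methyltransferase of promoters, stood at 112, 122 and 88.0 CPM in Young and 12.0, 14.1 and 15.1 CPM in Old (log2 fold change −2.97, SE 0.14, adjusted p = 6.1e-09). The highest Old library was below the lowest Young library for each. With length correction Kmt2d was at −2.40, Crebbp at −2.35 and Kmt2a at −1.61, and so were Kmt2c (−1.57) and the remodeller Chd9 (−1.14), all called. The 2 higher genes were the deacetylase Hdac2 (log2 fold change 1.05, SE 0.12, adjusted p = 7.6e-06) and Eed of Polycomb complex PRC2 (log2 fold change 0.33, SE 0.12, adjusted p = 0.03), the latter not called without Young replicate 1 or Young replicate 3 or with length correction.

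**Figure D5:**
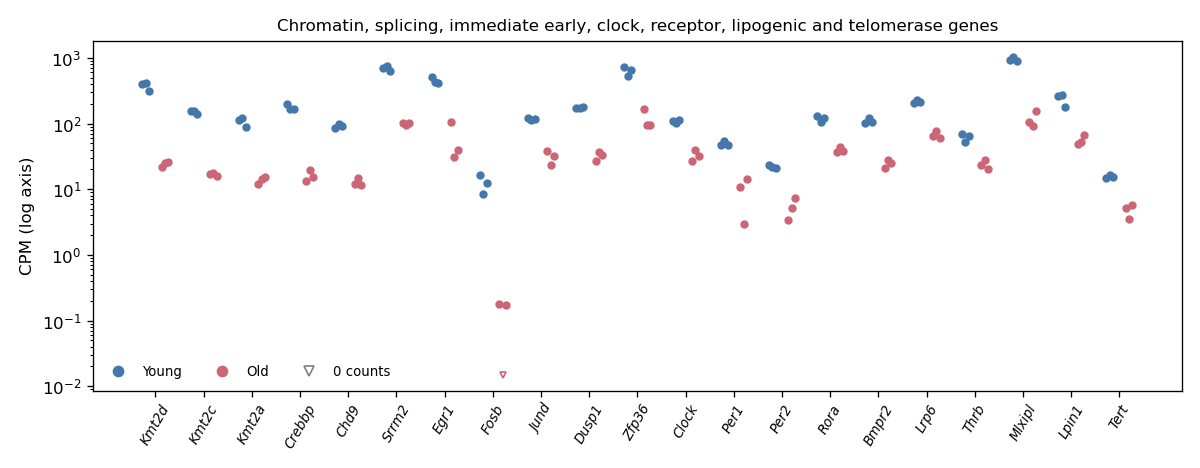
CPM on a log axis in each Young and Old library (1 point per mouse; open triangles mark 0 counts) for chromatin, splicing, immediate early, clock, receptor, lipogenic and telomerase genes. For Kmt2d the Young libraries lie between 317 and 411 CPM and the Old libraries between 21.5 and 26.4 CPM.

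Splicing genes split into both directions, as did all genes tested (29.3% higher and 33.7% lower). Of 38 tested, 14 were higher, 15 lower and 9 not called (median log2 fold change −0.01), and with length correction 17 higher and 8 lower at a median of 0.26. Srrm2, a scaffold protein of nuclear speckles, stood at 699, 765 and 624 CPM in Young and 103, 96.1 and 103 CPM in Old (log2 fold change −2.79, SE 0.13, adjusted p = 6.1e-09). Son, another speckle scaffold, was lower as well (log2 fold change −1.62, SE 0.13, adjusted p = 2.2e-07). Hnrnpm, an RNA-binding protein, stood at 29.8, 28.7 and 30.2 CPM in Young and 61.5, 73.8 and 61.2 CPM in Old (log2 fold change 1.15, SE 0.11, adjusted p = 9.3e-07), and Srsf9, a small splicing factor, was higher too (log2 fold change 1.61, SE 0.17, adjusted p = 2.2e-06).

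Immediate early genes, which cells switch on soon after a stimulus such as tissue dissociation, were lower in Old. Of 22 tested, 2 were higher, 17 lower and 3 not called (median log2 fold change −1.40), and with length correction 1 higher and 16 lower at a median of −2.03. The list summed to 2199 to 2641 CPM in Young and 483 to 894 CPM in Old. Egr1, a zinc finger factor, stood at 516, 428 and 419 CPM in Young and 106, 31.0 and 40.1 CPM in Old (log2 fold change −2.94, SE 0.42, adjusted p = 4.2e-05). Jund, a subunit of AP-1, stood at 122, 114 and 118 CPM in Young and 38.1, 23.1 and 32.5 CPM in Old (log2 fold change −1.92, SE 0.17, adjusted p = 7.2e-07). Fosb, another AP-1 subunit, was at a trace in Old, with 16.6, 8.52 and 12.3 CPM in Young and 0.180, 0 and 0.174 CPM in Old. The groups overlapped in none of these genes, nor in the phosphatase Dusp1 (log2 fold change −2.45, SE 0.40, adjusted p = 1.2e-04) and Zfp36, which destabilizes inflammatory mRNAs (log2 fold change −2.39, SE 0.30, adjusted p = 1.3e-05). The 2 higher genes were Ier3 (not with length correction) and Ier5 (log2 fold change 2.05, SE 0.26, adjusted p = 1.6e-05). The time from perfusion to lysis is not given in the sources used here.

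Clock genes were lower where called. Of 19 tested, 0 were higher, 10 lower and 9 not called (median log2 fold change −0.68), and with length correction 0 higher and 11 lower at a median of −0.60. Per1, a repressor of the clock, stood at 47.4, 55.1 and 47.6 CPM in Young and 10.9, 2.97 and 14.5 CPM in Old (log2 fold change −2.40, SE 0.40, adjusted p = 1.5e-04). Per2, its relative, stood at 23.7, 21.9 and 21.1 CPM in Young and 3.41, 5.22 and 7.41 CPM in Old (log2 fold change −2.05, SE 0.30, adjusted p = 5.5e-05). Clock, the activator that both repress, stood at 111, 102 and 115 CPM in Young and 26.7, 39.9 and 32.6 CPM in Old (log2 fold change −1.72, SE 0.14, adjusted p = 2.6e-07). Repressors and activator were thus lower in the same libraries, as was the nuclear receptor Rora (log2 fold change −1.61, SE 0.17, adjusted p = 2.1e-06). The hour of sampling is not given in the sources used here.

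Receptors of growth factors and hormones were lower where called. Of 32 tested, 0 were higher, 18 lower and 14 not called (median log2 fold change −0.61), and with length correction 3 higher and 12 lower at a median of −0.09. Bmpr2, the type II receptor of BMPs, stood at 101, 123 and 106 CPM in Young and 21.2, 27.5 and 25.4 CPM in Old (log2 fold change −2.15, SE 0.13, adjusted p = 2.0e-08). Met, the receptor of hepatocyte growth factor, stood at 155, 179 and 164 CPM in Young and 94.4, 90.2 and 69.9 CPM in Old (log2 fold change −0.97, SE 0.14, adjusted p = 4.2e-05). Thrb, the thyroid hormone receptor of the liver, stood at 68.3, 53.1 and 65.7 CPM in Young and 23.6, 28.0 and 20.4 CPM in Old (log2 fold change −1.38, SE 0.13, adjusted p = 1.3e-06). All 3 kept their call with length correction, at −0.71, −0.44 and −0.89, whereas Lrp1, an endocytic receptor (log2 fold change −1.65, SE 0.20, adjusted p = 7.6e-06), did not (−0.21).

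Genes of senescence and of the p53 response changed in both directions, as did all genes tested (29.3% higher and 33.7% lower). Of 25 senescence genes, 9 were higher, 6 lower and 10 not called (median log2 fold change 0.37), and with length correction 4 higher and 5 lower at a median of 0.01. Cdkn1a, which codes for p21, stood at 7.84, 6.21 and 7.60 CPM in Young and 2.81, 13.7 and 10.8 CPM in Old (log2 fold change 0.33, SE 0.36, adjusted p = 0.44), and it was called higher without Old replicate 1 (0.88). Cdkn2a, which codes for p16, had 1, 0 and 0 counts in Young and 0, 6 and 0 in Old and was too low to test. Cdkn2c, another inhibitor of the cell cycle, stood at 1.39, 1.93 and 1.38 CPM in Young and 4.79, 2.97 and 4.57 CPM in Old (log2 fold change 1.40, SE 0.29, adjusted p = 9.0e-04). Neither of the usual marks of senescence was thus called, while Cdkn2c and the chromatin protein Hmgb2 (log2 fold change 1.43, SE 0.23, adjusted p = 9.6e-05) were higher and the retinoblastoma gene Rb1 lower (log2 fold change −1.06, SE 0.15, adjusted p = 4.7e-05). Of 28 p53 targets, 9 were higher, 8 lower and 11 not called (median log2 fold change 0.15), with 5 higher without Young replicate 1. With length correction p53 targets gave 5 higher and 9 lower at a median of −0.12. Fas, a death receptor, stood at 8.23, 8.99 and 10.0 CPM in Young and 23.1, 20.6 and 17.8 CPM in Old (log2 fold change 1.17, SE 0.15, adjusted p = 1.3e-05). Sesn3, a sestrin, stood at 82.6, 56.2 and 76.6 CPM in Young and 19.3, 23.4 and 25.4 CPM in Old (log2 fold change −1.66, SE 0.16, adjusted p = 9.2e-07). Trp53 itself was lower (log2 fold change −0.82, SE 0.13, adjusted p = 8.8e-05).

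Genes of mitosis and replication were at low levels in both groups. Of 34 tested, 10 were higher, 3 lower and 21 not called (median log2 fold change 0.31), with length correction 8 higher and 4 lower at a median of 0.20, and their sums overlapped (132 to 145 CPM in Young and 138 to 153 CPM in Old). Pcna, the clamp of DNA polymerase, stood at 7.00, 7.32 and 7.49 CPM in Young and 24.2, 23.3 and 20.6 CPM in Old (log2 fold change 1.64, SE 0.20, adjusted p = 9.1e-06). The 3 lower genes were Ccne2, Ttk (not called without Old replicate 1 or Old replicate 2) and E2f8, a repressor that acts in polyploid hepatocytes (log2 fold change −1.95, SE 0.27, adjusted p = 2.9e-05). With limma-voom 4 genes were higher in place of 10. Of 18 telomere genes, 8 were higher, 8 lower and 2 not called (median log2 fold change 0.05), with 4 lower without Old replicate 1 and 5 without Old replicate 2, and with length correction 4 higher and 6 lower at a median of −0.11. Tert, the catalytic subunit of telomerase, stood at 15.1, 16.3 and 15.1 CPM in Young and 5.15, 3.57 and 5.84 CPM in Old (log2 fold change −1.67, SE 0.18, adjusted p = 2.8e-06). Nhp2, a protein bound to the telomerase RNA, stood at 8.26, 6.02 and 6.72 CPM in Young and 26.4, 17.4 and 20.4 CPM in Old (log2 fold change 1.61, SE 0.20, adjusted p = 9.1e-06).

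Genes often used for scaling also differed. Actb, cytoplasmic actin, stood at 1869, 1400.5 and 1747 CPM in Young and 492, 753 and 530.2 CPM in Old (log2 fold change −1.50, SE 0.20, adjusted p = 1.9e-05). Gapdh, of glycolysis, stood at 722, 507 and 828 CPM in Young and 1348, 994 and 1258 CPM in Old (log2 fold change 0.81, SE 0.21, adjusted p = 0.0046). They lay apart in opposite directions. Lars2, the mitochondrial leucyl-tRNA synthetase, was among the 12 largest increases, with 15.5, 14.3 and 16.0 CPM in Young and 1326, 233 and 648 CPM in Old (log2 fold change 5.59, SE 0.59, adjusted p = 2.6e-06), and its Old libraries lay far from each other.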

How the data were processed

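Poly(A)-enriched RNA of hepatocytes was sequenced from paired ends. Per the labels and the study's methods, the authors trimmed reads with Trim Galore, aligned them to mm10 with STAR 2.5.0c, removed duplicates with Picard and deposited whole-number counts of read pairs per gene made with HTSeq; the strand setting and annotation release are not given in the sources used here. Rows that name no gene (pairs outside genes or in more than 1 gene) were kept out of library sizes, and their shares are given above. Genes were annotated by identifier from GENCODE M21 (31011 of 31053 matched). The quasi-likelihood test of edgeR 4.0.16 (R 4.3.3; TMM, filterByExpr with a minimum count of 10) was fitted to the 12 libraries of Young, Young PH, Old and Old PH, which share 1 estimate of spread (8 residual degrees of freedom), with the contrast Old minus Young and Benjamini-Hochberg adjustment over 14554 genes. The length correction entered as a per-library loess offset (span 0.3). Where nothing says that mice were handled separately, p-values measure the spread between these libraries only. Alternatives were other scaling factors, DESeq2 1.42.0, limma-voom 3.58.1, other filters, a replicate block, corrections for length, intron length and GC, and leaving out each library. Genes were named by size (up to 12 coding and 6 noncoding each way) and by smallest adjusted p within lists, and members of counts up to 5 were named after their values were seen. The members, lists and rules were chosen with earlier results of these data known, so counts over lists are descriptions. The libraries of the Smo experiment were not used here, and a few genes are not reported here. Intervals and floors cover counting error only.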

Additional observations from a re-analysis of the deposited data

How the results depend on the processing

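The number of genes called was 9168 and lay between 7338 and 10043 under the 20 alternatives, 7338 being with protein-coding genes only and length correction, within 1.5 times for each. Leaving out 1 library gave 8459 to 9401 called genes, 3930 to 4952 higher and 4449 to 4607 lower. The median over all genes moved from −0.05 to 0.09 with upper-quartile factors, to 0.10 with the GC correction and to 0.07 with the length correction. Of 224 genes named in the text, 166 had the same call under every alternative. With the replicate block 9007 genes were called (4148 higher and 4859 lower), of which 8909 were called in the same direction without it. Deviations of same-numbered libraries correlated at 0.226, 0.167 and −0.016. Young 1 and Young 2 correlated best with the Old library of their own number, and Young 3 did not. These few values cannot settle whether the numbers pair the mice. Under the length correction 460 of the called genes changed sign and 120 were called in the other direction, and with protein-coding genes only 677 and 166. Reversed values were, under the length correction and then with coding genes only, 0.039 and 0.034 for Erap1, 0.022 and 0.021 for Ifih1, 0.17 and 0.17 for Parp14, 0.54 and 0.56 for Acaca, 0.29 and 0.30 for Slc1a2, 0.17 and 0.17 for Psme4, 0.048 and 0.045 for Slc39a14, and 0.37 and 0.37 for Ireb2. With coding genes only Cyp27a1 was at −0.058, Baat at −0.019 and Mup3 at −0.33, and under the intron-length correction Acaca was at 0.023, Psme4 at 0.18 and Kynu at 0.053. The causes were not tested. The long noncoding share differed by −8.629 percentage points (Old minus Young) as a share of gene counts and by −5.698 as a share of all counted pairs. Old libraries held fewer pairs in genes than Young libraries, so low genes are read less surely there.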

Other observations

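The 11 eye genes were also counted in the libraries taken after partial hepatectomy, which enter the comparison above only through the shared fit. Their sum was 8.31, 91.6 and 26.5 CPM in the Old PH libraries and 0.385, 0.489 and 0.714 CPM in the Young PH libraries, against 69.95, 101.8 and 133.7 CPM in the Old libraries. The lens crystallin Cryaa stood at 1.76, 29.98 and 7.10 CPM in Old PH and at 0, 0 and 0.0264 CPM in Young PH.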
